A study of Mus musculus with 2 samples.

Results

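Immunoglobulin and plasma cell secretory genes were followed in single-cell RNA-seq counts of mouse bone and marrow. The 10 genes, of 32285 in the files, were chosen by name, with earlier results of these data known. They comprise the heavy-chain constant genes Ighm, Igha, Ighg2b and Ighg2c, the kappa light-chain constant gene Igkc, the immunoglobulin joining chain gene Jchain, the chaperone gene Mzb1, the transcription factor genes Xbp1 and Prdm1, and the surface proteoglycan gene Sdc1. Barcodes were kept if they had at least 200 genes and at most 20% mitochondrial unique molecular identifiers (UMIs, the tags that mark single RNA molecules), which left 9573. A kept barcode was called plasma-like if it had at least 1 UMI of both Jchain and Mzb1 and if the 5 listed immunoglobulin genes (Ighm, Igha, Ighg2b, Ighg2c and Igkc) made up at least 2% of its UMIs, which held for 33 of the 9573 (0.345%, exact 95% interval 0.237 to 0.484%). In a clustering of all kept barcodes, 30 of the 33 fell into 1 cluster of 44 cells, in which 12 of 12 markers of plasma cells were found, and their median depth of 30930 UMIs was above that of the other barcodes (9791). Both values follow in part from the rule. The markers include Jchain and Mzb1, and a rule that requires a UMI of both favours deep barcodes.

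The cells came from the femurs and tibias of 3 male INK-ATTAC mice, 24 months old, which were pooled into 1 sample and not treated. In these mice a transgene under the p16Ink4a promoter allows p16-expressing cells to be killed by a drug, which was not given here. Bone and marrow cells were combined, depleted on magnetic beads of cells bearing lineage markers (CD5, B220, CD11b, Gr-1, 7-4, Ter-119), and sorted for lack of CD45 and of the dead-cell dye SYTOX. The counts were deposited as 2 samples labelled rep1 and rep2, which had 10928 called barcodes in common and so held the same cells. They are called lane 1 and lane 2 here, a name that the labels do not give, and their counts were summed.

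Plasma cells are the antibody-secreting end stage of the B lineage, and some of them live for long periods in the marrow. Each one makes antibody of a single heavy-chain class and a single light chain, because a B cell joins 1 heavy and 1 light variable segment to the constant genes and later class switching replaces the heavy constant gene. The change from B cell to plasma cell is driven by the transcription factors Prdm1 (Blimp-1), which represses the B cell program, and Xbp1, which is activated by the unfolded protein response and enlarges the endoplasmic reticulum.

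With 1 biological sample there was no replicate error, so no test was made. All intervals are 95% exact intervals that cover counting error only. Levels are given as CPM, the counts of a gene per 1000000 UMIs, over all cells of a class together, and their intervals use the mean of the lanes, since a molecule may have been counted in both. Lane 1 held 116827845 UMIs and lane 2 held 120556381. Because the libraries count 3′ ends, secreted and membrane immunoglobulin transcripts, or spliced and unspliced Xbp1, were not told apart, and the mouse from which a cell came is not known.

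Variable segments and constant genes together carry the identity of a plasma cell, so the last 240 bases of the coding exon (exon 2 of 2) of the segments found most often are shown first, from the GENCODE M21 annotation of the GRCm38 build. They are the heavy-chain segment Ighv2-9-1 (chr12:113769850-113770089, minus strand) with the kappa segment Igkv4-91 (chr6:68768555-68768794, minus strand), which led in 10 cells, and the heavy-chain segment Ighv7-1 (chr12:113896408-113896647, minus strand) with the kappa segment Igkv15-103 (chr6:68437686-68437925, plus strand), which led in 5 cells. Capitals mark the last in-frame cysteine codon of each exon, near the 3′ end at which the segment is joined.
Ighv2-9-1: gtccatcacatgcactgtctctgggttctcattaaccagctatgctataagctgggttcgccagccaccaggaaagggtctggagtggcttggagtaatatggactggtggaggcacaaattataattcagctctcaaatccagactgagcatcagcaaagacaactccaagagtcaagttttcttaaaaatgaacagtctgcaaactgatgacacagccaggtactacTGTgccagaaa
Igkv4-91: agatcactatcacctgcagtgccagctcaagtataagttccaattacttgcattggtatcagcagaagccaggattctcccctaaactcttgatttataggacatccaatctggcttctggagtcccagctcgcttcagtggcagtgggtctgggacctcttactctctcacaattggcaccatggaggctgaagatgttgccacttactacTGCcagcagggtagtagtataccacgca
Ighv7-1: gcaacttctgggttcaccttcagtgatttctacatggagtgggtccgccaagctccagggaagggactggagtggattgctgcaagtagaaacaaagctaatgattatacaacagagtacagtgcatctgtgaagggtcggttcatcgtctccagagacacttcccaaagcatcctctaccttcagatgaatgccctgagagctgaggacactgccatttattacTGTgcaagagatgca
Igkv15-103: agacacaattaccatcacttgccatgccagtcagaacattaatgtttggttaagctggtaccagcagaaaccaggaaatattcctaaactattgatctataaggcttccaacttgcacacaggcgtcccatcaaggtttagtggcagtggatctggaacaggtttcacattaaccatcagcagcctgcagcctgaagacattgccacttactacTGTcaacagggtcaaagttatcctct

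The constant genes Ighg2b and Ighg2c code for closely related IgG classes and lie in the same cluster on chromosome 12 (GRCm38, minus strand), with Ighg2b at 113302965-113307933 and Ighg2c at 113285325-113288932. Their coding sequences for the secreted form were identical at 862 of 1007 aligned bases (85.6%), and at 228 of the last 300 (76.0%). The hinge exons, which join the antigen-binding arms to the stem of the antibody, are exon 2 of 4 in both genes and differ in length, with 66 bases in Ighg2b (chr12:113307261-113307326) and 63 in Ighg2c (chr12:113288263-113288325).
Ighg2b hinge: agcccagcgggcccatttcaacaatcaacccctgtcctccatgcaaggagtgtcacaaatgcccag
Ighg2c hinge: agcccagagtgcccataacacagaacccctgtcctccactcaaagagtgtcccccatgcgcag
The last 90 coding bases of the secreted form lie in exon 4, nearest to the 3′ end that the libraries count (chr12:113306392-113306481 in Ighg2b and chr12:113287392-113287481 in Ighg2c). Capitals mark the 28 bases at which the genes differ there.
Ighg2b end: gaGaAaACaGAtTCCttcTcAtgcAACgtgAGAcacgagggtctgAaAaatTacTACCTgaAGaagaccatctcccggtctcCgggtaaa
Ighg2c end: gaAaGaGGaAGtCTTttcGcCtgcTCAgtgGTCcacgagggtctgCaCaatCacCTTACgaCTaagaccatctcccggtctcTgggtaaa

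The 33 plasma-like cells held mostly IgG. The class of a cell was taken from the heavy-chain constant gene with most of its heavy-chain UMIs. Ighg2c (IgG2c) led in 14 cells (42.4%, interval 25.5 to 60.8%), Ighm (IgM) in 8 (24.2%, 11.1 to 42.3%), Ighg2b (IgG2b) also in 8, and Igha (IgA, the antibody of mucosal surfaces) in 3 (9.09%, 1.92 to 24.3%). The other heavy-chain constant genes in the files, Ighd, Ighg1, Ighg3 and Ighe, led in 0 of 33 cells, which at this number allows a share of up to 10.6%. The intervals of Ighg2c, Ighm and Ighg2b overlap, so their order was not resolved by 33 cells.

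Each cell was dominated by 1 class. The leading gene held at least 90% of the heavy-chain UMIs in 33 of 33 cells, with 90.2% in the lowest cell, an Ighg2b cell with Ighm UMIs, and over 99% in 29 cells. The same class led in both lanes in 33 of 33 cells. The UMIs of a second class were unevenly spread between the paired IgG genes. In the Ighg2c cells, 441 UMIs of Ighg2b stood beside 44601 of Ighg2c, a share of 0.979%, and 13 of the 14 cells had at least 1. In the Ighg2b cells, 2 UMIs of Ighg2c stood beside 25949 of Ighg2b, a share of 0.00771%. Within single Ighg2c cells the Ighg2b share had a median of 0.552%. It reached 9.38% in the shallowest cell, which had 32 heavy-chain UMIs of 3175 in all, and 2.94% in the next. How far similar sequence, free RNA or transcription of both genes took part in this was not tested. The Ighm cells held 9 IgG UMIs beside 39869 of Ighm.

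**Figure D1:**
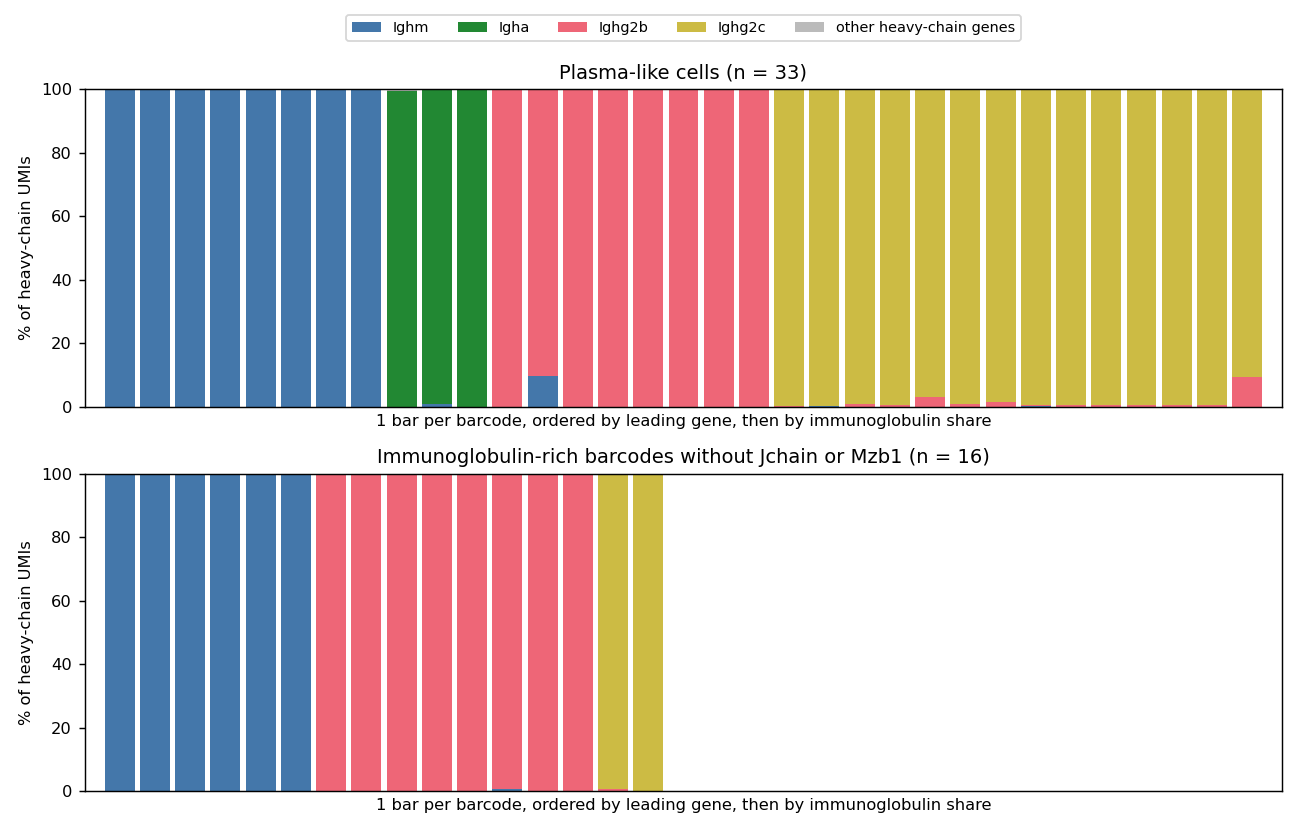
Percent of heavy-chain UMIs from each constant gene (y axis, stacked bars from 0 to 100%) in each of the 33 plasma-like cells (upper panel, 1 bar per barcode, ordered by leading gene). The lower panel shows the 16 immunoglobulin-rich barcodes outside the rule. In every upper bar 1 gene takes at least 90.2%, and small Ighg2b shares of up to 9.38% stand in the Ighg2c cells.

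By the constant genes, kappa was the leading light chain in every plasma-like cell. Igkc UMIs exceeded those of the lambda constant genes in 33 of 33 cells, and the lambda share of light-chain UMIs had a median of 0.601%. The highest value, 24.1%, was 20 of 83 light-chain UMIs in the shallowest cell (3175 UMIs), and the next was 3.91%. Among variable segments, the lambda segment Iglv1 had more UMIs than the leading Igkv segment in some cells. Its highest count was 318, against 65 of Igkv2-112, in an Ighm cell, and other cells had fewer or none. What this lambda segment RNA stands for was not tested. Igkc UMIs per cell ran from 63 to 23421, with a median of 8277. Its level was 257140 CPM (256751 in lane 1 and 257516 in lane 2), so about 1 in 4 UMIs of these cells was Igkc. The lanes differed by less than 1% for this gene, but they hold the same cells and are no biological replicates.

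Over the 33 cells together, Ighg2c was at 40763 CPM (40586 and 40934 in the lanes), Ighm at 36908 (37044 and 36776), Ighg2b at 24118 (24158 and 24079) and Igha at 10507 (10404 and 10606). All immunoglobulin genes of the files, 392 including variable segments, made up 37.8% of the UMIs of these cells. The share of the 5 listed ones, which the rule used, had a median of 41.0% per cell and reached 66.5%, and 27 cells were at 20% or more. These shares and the Jchain and Mzb1 UMIs chose the cells and are a description. The cells just inside the limit of 2% were at 2.99% and 5.04%, and the highest of the 9 barcodes that had both Jchain and Mzb1 but lay outside it was at 0.447%.

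Pairs of variable segments were shared between cells of the same class. The leading Ighv and Igkv segments of the 33 cells, taken from the 185 Ighv and 160 Igkv genes in the files, made 16 pairs, of which 6 were found in at least 2 cells and covered 23 cells. Ighv2-9-1 with Igkv4-91 led in 10 of the 14 Ighg2c cells (71.4%, interval 41.9 to 91.6%). Ighv14-3 with Igkv5-43 led in 2 further Ighg2c cells, 1 of which had only 1 Ighv UMI. Ighv7-1 led in 7 of the 8 Ighm cells, in 5 of them with Igkv15-103 (62.5%, 24.5 to 91.5%) and in 2 with Igkv2-112, while Ighv2-9 led in the remaining one. By contrast the 8 Ighg2b cells had 6 pairs and the 3 Igha cells had 3. Over the 33 cells and the 16 immunoglobulin-rich ones there were 21 pairs, of which 0 were found in cells of 2 classes. Single kappa segments did cross classes. Igkv10-96 led in Ighg2b and Ighg2c cells, and Igkv1-117 in Ighg2b and Igha cells.

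The leading segment held at least 90% of the Ighv UMIs in 29 cells and of the Igkv UMIs in 31, and the lowest values were 50.5% and 86.4%. The 50.5% was 47 of 93 Ighv UMIs in a cell with Ighv2-9-1 and Igkv4-91. The median cell had 76 Ighv and 65 Igkv UMIs, and 2 cells had fewer than 10 Ighv UMIs. The same pair led in both lanes in 31 of 33 cells. Of the 10 cells with Ighv2-9-1 and Igkv4-91, 3 also held 1.72 to 4.46% globin UMIs, against a median of 0.0423% over the 33 cells, and without those the pair was found in 7 of 11 Ighg2c cells. The files count segments and not joined sequences, and segments of a family are alike in sequence, so cells with the same pair are not shown to be of 1 clone.

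**Figure D2:**
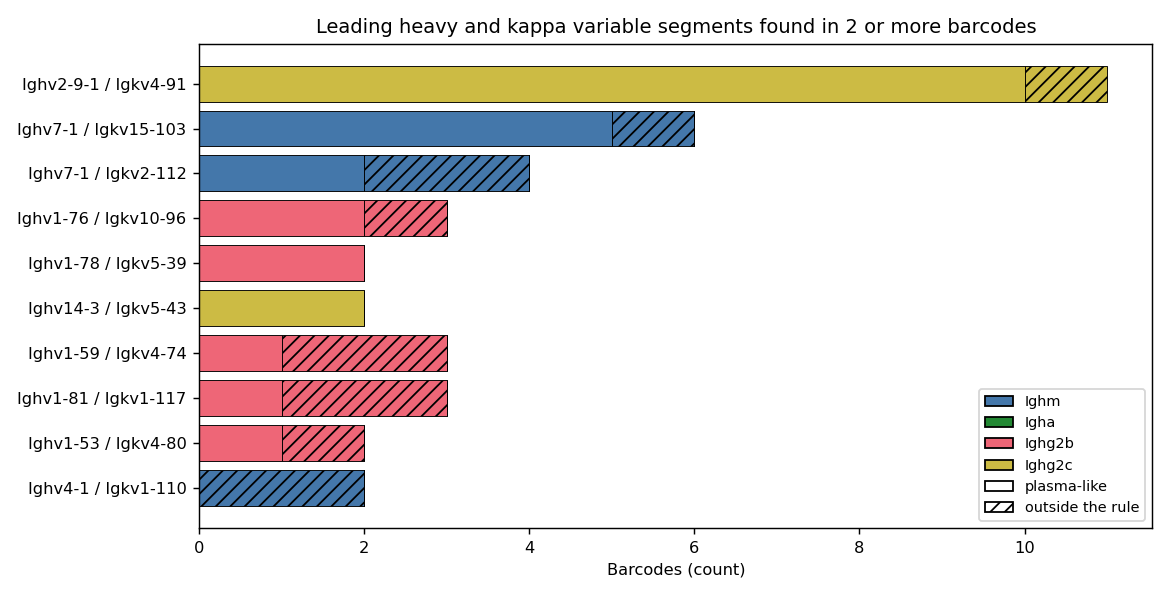
Number of barcodes (x axis) in which each pair of Ighv and Igkv segments led, for pairs found at least 2 times (y axis), coloured by heavy-chain class, with the immunoglobulin-rich barcodes outside the rule hatched. The longest plain bar is the 10 Ighg2c cells with Ighv2-9-1 and Igkv4-91, followed by the 5 Ighm cells with Ighv7-1 and Igkv15-103, and no pair joins cells of different classes.

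Jchain codes for the joining chain that links IgM and IgA units into polymers. It was detected in all 33 cells because the rule required it, and its amounts by class are a description. The rule cut the low end unevenly, since 3 Ighm and 1 Ighg2b barcodes rich in immunoglobulin were left outside it with 0 Jchain UMIs and no Igha or Ighg2c barcode was. Its UMIs per cell ran from 1 to 2430 with a median of 102, and its level was 9138 CPM (9214 and 9065 in the lanes). In the 3 Igha cells, Jchain made up 1.17, 4.29 and 5.91% of the UMIs, which was 139 to 1811 UMIs. In the Ighm cells the share ran from 0.0375 to 1.00% (median 0.318%), in the Ighg2b cells from 0.0189 to 2.18% (median 0.250%), and in the Ighg2c cells from 0.0443 to 9.20% (median 0.168%). The values of the Igha and Ighm cells within the rule did not overlap, and the highest single value was in an Ighg2c cell. The lowest Igha value was that of a cell in the fibroblast-like cluster. Over the cells of a class together, Jchain was at 43754 CPM in Igha, 7963 in Ighg2c, 6724 in Ighg2b and 4255 in Ighm cells. Single cells set the pooled values of both IgG classes, since 1 cell held 2430 of the 3548 Jchain UMIs of the Ighg2c cells and another 823 of the 1331 of the Ighg2b cells. Without the highest cell of each class the values were 44654 in Igha, 3169.9 in Ighg2b, 3042 in Ighm and 2667 in Ighg2c cells. With 3 Igha cells from pooled mice this is a description of these cells.

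Mzb1 codes for an endoplasmic reticulum chaperone that assists the folding of immunoglobulin in B and plasma cells. It had 1 to 143 UMIs per plasma-like cell, with a median of 14, and 861 CPM (848 in lane 1 and 873 in lane 2, interval 785 to 942). The presence of Mzb1 was required by the rule, and low counts of it limited which cells passed. A further 16 kept barcodes had at least 2% immunoglobulin UMIs but lacked Mzb1 (13 barcodes), Jchain (4) or both (1 of these). In them, Ighg2b led in 8, Ighm in 6 and Ighg2c in 2, and 15 of them were at 20% immunoglobulin or more. One without Mzb1 had as many as 71436 UMIs. Counted together, the 49 barcodes with at least 2% immunoglobulin UMIs held 16 Ighg2b, 16 Ighg2c, 14 Ighm and 3 Igha cells, so Ighg2c no longer led.

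Xbp1, Prdm1 and Sdc1 were not used by the rule, and all 3 were higher in the plasma-like cells than in the other 9540 kept barcodes. Xbp1 had 0 to 125 UMIs per cell with a median of 18, was detected in 32 of 33 cells, and stood at 982 CPM (944 and 1019 in the lanes, interval 901 to 1069). Against all other barcodes its log2 ratio was 5.15 (5.02 to 5.29). Prdm1 was sparse, with 0 to 9 UMIs per cell, detection in 10 of 33 cells and 18.3 CPM (20.5 and 16.2, interval 8.76 to 33.6), and its log2 ratio was 5.91 (4.74 to 6.96). A cell without a Prdm1 UMI cannot be called negative at this depth. Sdc1 (syndecan-1, CD138), the surface marker by which plasma cells are commonly sorted, had 0 to 17 UMIs per cell with a median of 3, was detected in 28 cells, and stood at 155 CPM (147 and 164, interval 124 to 192), with a log2 ratio of 4.26 (3.92 to 4.58). By the mean over cells of CPM, which weights shallow barcodes like deep ones, the log2 ratios were lower, at 2.34 for Sdc1, 4.24 for Xbp1 and 4.18 for Prdm1.

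A gene was counted as higher or lower where the CPM ratio was at least 4-fold. By that count 10 of the 10 genes were higher in the plasma-like cells, against 5.73% of the 14172 genes compared. For the immunoglobulin genes, Jchain and Mzb1 the rule itself led to this, and their log2 ratios, from 7.39 (Ighg2b) to 12.55 (Igha), are given as a description. The 3 genes that the rule did not use were also past 4-fold. All 10 members were chosen with earlier results of these data known, so their count beside 5.73% is a description and no independent support.

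Sdc1 and Xbp1 were not particular to plasma-like cells in this sample. The stromal cells that make Cxcl12 and Lepr and support blood formation formed a cluster of 1273 cells, named LEPR+ stromal-like from 12 of 12 markers. Their Sdc1 level was 155 CPM (158 in lane 1 and 152 in lane 2, interval 143 to 167), and 668 of these cells (52.5%) had a UMI at a median depth of 6210. The ratio of plasma-like to LEPR+ stromal-like cells was 0.00 on the log2 scale (−0.34 to 0.33). Immunoglobulin UMIs enter the total of the plasma-like cells, and when they were left out of the totals Sdc1 was at 249.9 CPM there against 155, a log2 ratio of 0.69 (0.35 to 1.02). So whether Sdc1 was higher in plasma-like than in stromal-like cells depended on the scaling, while its presence in both did not. Of all Sdc1 UMIs in kept barcodes, 64.9% lay in LEPR+ stromal-like cells and 8.30% in plasma-like cells.

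In the remaining classes Sdc1 was at 60.6 CPM in an unnamed cluster (cluster 6) that also had the stromal markers, 30.8 CPM in another (cluster 13), 29.9 CPM in fibroblast-like, 0.718 CPM in erythroid-like and 0.681 CPM in megakaryocyte-like cells. In erythroid-like cells, in which the gene is not known to be active, 111 of 6430 had a UMI at a median depth of 28688.5. The stromal-like and plasma-like levels of Sdc1 lay far above the level in erythroid-like droplets. After lane 1 was thinned to 1000 UMIs per cell, 1 of 33 plasma-like cells and 14.1% of LEPR+ stromal-like cells had a Sdc1 UMI. Unthinned and with both lanes summed, the shares were 84.8 and 52.5%, and no order is read from these shares.

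Xbp1, which acts in many secretory cells, was at 164 CPM in LEPR+ stromal-like cells (interval 153 to 177), 109 in fibroblast-like, 99.8 in megakaryocyte-like and 17.0 in erythroid-like cells. The plasma-like level of 982 CPM was above each of these, with a log2 ratio of 2.58 (2.41 to 2.74) over LEPR+ stromal-like cells and of 3.26 without immunoglobulin UMIs in the totals. Lane 1 was also thinned to 1000 UMIs per cell, with 106 shallower erythroid-like cells left out. Then 20 of 33 plasma-like cells (60.6%) had an Xbp1 UMI, against 15.8% of LEPR+ stromal-like and 1.30% of erythroid-like cells. Prdm1 was at 3.38 CPM in LEPR+ stromal-like cells (1.87 to 5.62), 3.26 in fibroblast-like and 0.0670 in erythroid-like cells, with a log2 ratio of 2.44 (1.11 to 3.70) of plasma-like over LEPR+ stromal-like cells. The order of Prdm1 between the stromal-like and fibroblast-like cells was not resolved.

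**Figure D3:**
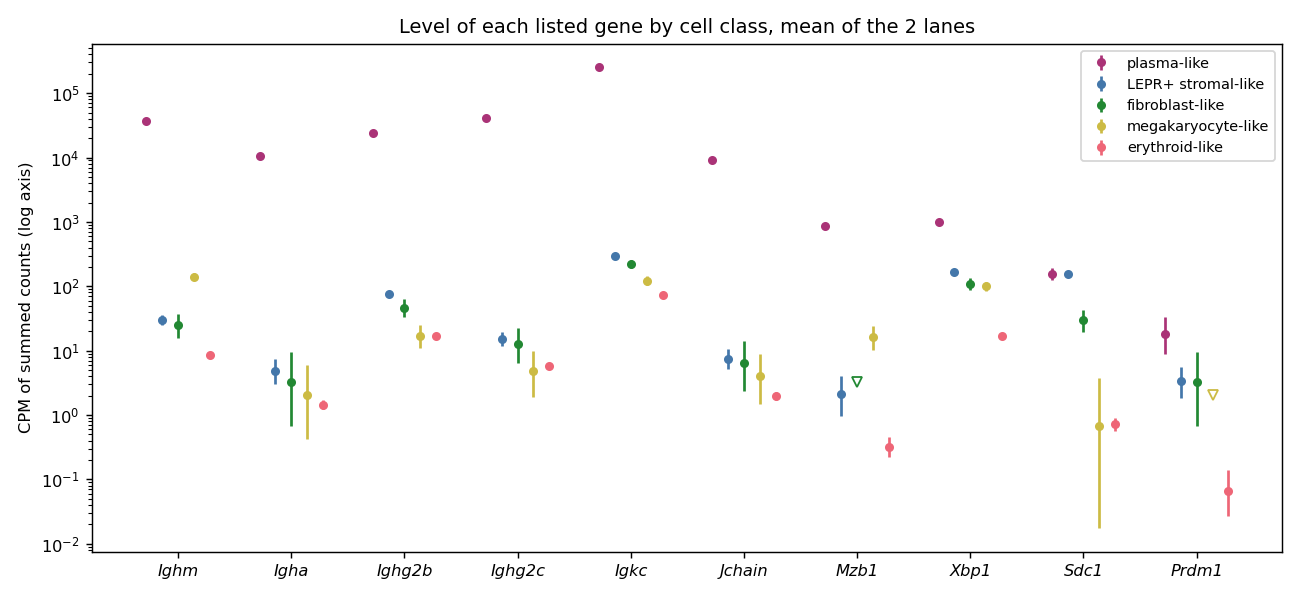
Level of the 10 genes (x axis) as CPM on a log axis (y axis) in 5 classes of cells (colours), with 95% exact counting intervals as lines and open triangles at the limit of 3 counts where a class had no UMI. Jchain, Mzb1 and the immunoglobulin genes stand highest in the plasma-like cells, which the rule fixed, while Sdc1 is at 155 CPM in both plasma-like and LEPR+ stromal-like cells.

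A low level of immunoglobulin RNA was found in nearly every kind of droplet. Igkc had at least 1 UMI in 6558 of the 9524 kept barcodes outside the 33 plasma-like cells and the 16 immunoglobulin-rich ones (68.9%), at 91.9 CPM, and immunoglobulin genes of the list made up 0.0134% of all UMIs there. The mean of immunoglobulin UMIs per droplet was 2.26 to 3.40 in every class but the megakaryocyte-like one (6.56), although the median depth of the classes ran from 1640 to 28688.5 UMIs. As a share of UMIs the same amount differed more than 10-fold, from 0.0105% in erythroid-like to 0.131% in the shallowest unnamed cluster (cluster 12). The amount per droplet was thus much alike between classes of very different depth. Igkc was accordingly at 72.2 CPM in erythroid-like and 293 CPM in LEPR+ stromal-like cells.

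The heavy-chain mix of these droplets was not that of the plasma-like cells. Among 9678 heavy-chain UMIs in the 9524 droplets, 50.4% were Ighg2b (interval 49.0 to 51.8%), 29.7% Ighm (28.4 to 31.0%), 15.7% Ighg2c (14.7 to 16.8%) and 4.20% Igha (3.65 to 4.80%). In the plasma-like cells the shares were 21.5% Ighg2b, 32.9% Ighm, 36.3% Ighg2c and 9.36% Igha of 122888 UMIs. In the 16 immunoglobulin-rich barcodes outside the rule they were 64.5% Ighg2b, 26.1% Ighm, 9.43% Ighg2c and 0 Igha of 43869. In both sets of cells together they were 32.8% Ighg2b, 31.1% Ighm, 29.2% Ighg2c and 6.90% Igha of 166757. The share of Ighg2b was thus higher in the droplets than in the plasma-like cells with or without the immunoglobulin-rich barcodes, while the order of the classes among the cells depended on whether those were counted.

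A high share of Ighg2b was measured in each large class of droplets. Its share was 51.5% in erythroid-like (49.8 to 53.2%), 60.6% in LEPR+ stromal-like (56.3 to 64.7%) and 53.4% in fibroblast-like cells, and 50.2 to 51.9% in the 4 unnamed clusters. The megakaryocyte-like cluster was the exception, with 85.6% Ighm (80.5 to 89.8%) and 10.3% Ighg2b. The droplets held few UMIs of variable segments, 175 of Ighv and 180 of Igkv, and some of the leading segments were those of the plasma-like cells. Igkv15-103 was first in both, with 20.0% of Igkv UMIs in the droplets (12.3 to 29.8%) and 22.3% in the plasma-like cells. Ighv7-1 (14.3%, 7.72 to 23.4%, against 26.8%) and Ighv2-9-1 (12.6%, 6.45 to 21.4%, against 35.3%) were among the leading 3 Ighv segments of both. Ighv6-3 was first in the droplets, with 27 UMIs in 19 of them (15.4%, 8.59 to 24.7%), against 18 UMIs (0.641%) in the plasma-like cells, all in 1 Igha cell. Which cells the RNA in these droplets came from was not tested.

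**Figure D4:**
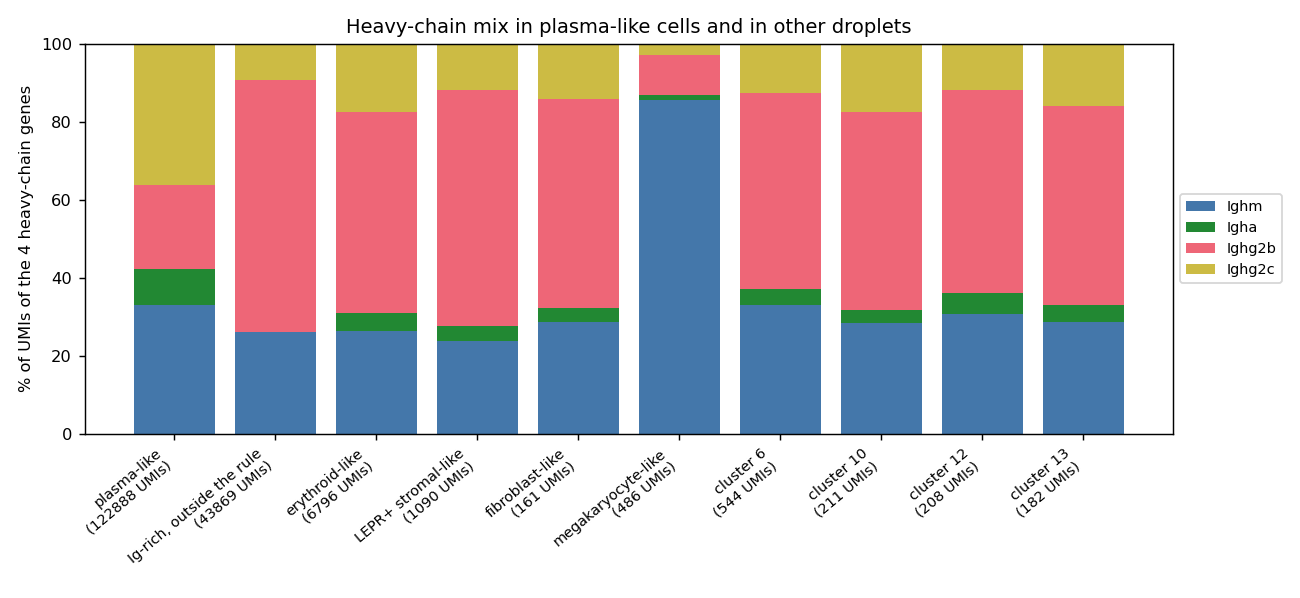
Percent of heavy-chain UMIs from Ighm, Igha, Ighg2b and Ighg2c (y axis) as stacked bars in the plasma-like cells, the immunoglobulin-rich barcodes outside the rule and the other classes of droplets (x axis). Ighg2b is near 50 to 60% in most droplet classes against 21.5% in the plasma-like cells, and Ighm reaches 85.6% in the megakaryocyte-like cluster.

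The other members were set against Igkc in the same droplets. Per 1000 Igkc UMIs there were 35.5 Jchain UMIs in the plasma-like cells (34.5 to 36.6), 14.1 in the 16 immunoglobulin-rich barcodes, 27.2 in erythroid-like (23.6 to 31.3) and 25.4 in LEPR+ stromal-like droplets (17.3 to 36.1). The erythroid-like value lay below that of the plasma-like cells and above that of the immunoglobulin-rich barcodes. However, single cells held 2430, 1811 and 1598 of the 10000 Jchain UMIs of the plasma-like cells. The rule also split those cells from the immunoglobulin-rich barcodes in part by Jchain. No order of the classes is read from these ratios. Mzb1 had 3.35 per 1000 Igkc UMIs in the plasma-like cells, 0.602 in the immunoglobulin-rich barcodes, which mostly lacked it by the rule, and 7.55 over all 9524 droplets (5.98 to 9.40). By class it was at 0 in fibroblast-like droplets (0 to 18.2) and cluster 13 (0 to 15.0), 3.10 in cluster 6 (0.375 to 11.2), 4.44 in erythroid-like (3.06 to 6.23) and 7.16 in LEPR+ stromal-like droplets (3.27 to 13.6), 29.2 in cluster 10 (12.9 to 57.2), 15.3 in cluster 12 (3.67 to 42.2) and 131 in the megakaryocyte-like cluster (81.1 to 201). For Sdc1 the same ratio was 0.604 in the plasma-like cells and 529 in LEPR+ stromal-like droplets, and for Xbp1 it was 3.82 and 561. Of the kept UMIs, the plasma-like cells held 96.6% for Igha, 88.7% for Ighg2c, 82.6% for Jchain, 80.7% for Mzb1, 73.8% for Ighm, 68.5% for Igkc and 44.3% for Ighg2b, but only 22.2% for Prdm1 and 14.4% for Xbp1. For Igkc, the 16 immunoglobulin-rich barcodes held a further 26.3% and the other 9524 droplets 5.16%. For Ighg2b, those 16 held 28288 of the 33165 UMIs outside the plasma-like cells.

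Droplets of the earlier B lineage held a small part of the Ighm outside the plasma-like cells, 394 of 14315 UMIs. The 16 immunoglobulin-rich barcodes held 11444 of these UMIs, and the other 9524 droplets held 2871, the 394 among them. B-lineage droplets were taken as kept barcodes outside the plasma-like and immunoglobulin-rich ones. They had UMIs of at least 3 of the genes Cd79a, Ebf1, Vpreb3 and Pax5. This rule was chosen after the values had been seen, and 12 of the 20 droplets lay in the megakaryocyte-like cluster. Depletion of B220 and the sort for lack of CD45 were aimed at cells of this lineage, and Ptprc (CD45) had 26 UMIs in 11 of the 20. They held 394 Ighm UMIs, in 19 of 20 droplets, beside 200 of Igkc, which is 1970 Ighm per 1000 Igkc UMIs (1541 to 2532). They also held 237 UMIs of Vpreb1 and 127 of Igll1, the surrogate light chain genes of B cell precursors, and 64 of Mzb1 in 14 droplets (194 CPM), but 2 of Jchain and 0 of Prdm1. Without them, the megakaryocyte-like cluster had 417 Ighm per 1000 Igkc UMIs (291 to 589), and its Mzb1 level was 0.359 CPM. The low Jchain beside Mzb1 in these droplets follows in part from their choice, since barcodes with both genes and 2% immunoglobulin were set apart as plasma-like, and 3 of those also met the rule on the B-lineage genes.

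Genes around the 10 members were followed in lists. For all 14172 genes compared, 812 (5.73%) were higher and 4876 (34.4%) lower in the plasma-like cells, 3219 of the latter without any UMI in the 33 cells. With the immunoglobulin UMIs left out of the totals, 1285 were higher and 3848 lower. The median log2 ratio of all genes compared was −1.27, or −0.39 with genes without a UMI set at the limit of 3 counts. Values of the lists are to be read against these.

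Of 9 listed transcription factor genes of the plasma cell program, 7 were higher, with a median log2 ratio of 5.69. Next to Xbp1 and Prdm1 these were Irf4 (7.74), which is needed for plasma cell formation, Pou2af1 (7.46) and Pou2f2 (5.78), the octamer coactivator and factor that act on immunoglobulin promoters, Bhlhe41 (5.69) and Zbtb20 (2.74). Zbtb38 (1.61) and Ell2 (1.18) did not reach 4-fold. Of 10 surface and survival genes, 6 were higher (median 4.00), among them Tnfrsf17 (10.60), the BCMA receptor on which long-lived plasma cells depend, Slamf7 (8.58) and Tnfrsf13b (8.06), besides Sdc1. Cd38 (1.26), Cd44 (0.69), Cxcr4 (0.38), the receptor for Cxcl12, and Itga4 (−0.81) were not.

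The lists of secretory machinery differed in how many of their genes were higher. Of 30 genes of protein folding and the unfolded protein response, 18 were higher (median 2.29), and 17 had a lower interval bound above 4-fold. Derl3 (8.24), which takes part in the removal of misfolded proteins, Ero1lb (5.48) and Txndc5 (5.78, 1167 against 21.3 CPM), which serve disulfide bond formation, and the peptidyl-prolyl isomerase gene Fkbp11 (5.47) led this list. Hsp90b1 (2.39) was also higher, whereas Hspa5 (1.03), Calr (0.23), Ppib (0.00), Pdia3 (−0.08) and Canx (−1.05), which code for abundant chaperones of the same compartment, lay within 4-fold of the other barcodes. The stress genes Atf4 (−0.11) and Ddit3 (−0.64) did so too.

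Of 19 genes of import into the endoplasmic reticulum, 4 were higher (median 1.20), namely Ssr4 (2.75), Srprb (2.52), Sec11c (2.26) and Spcs3 (2.10), and without immunoglobulin UMIs in the totals 7 were. Of 19 genes of glycosylation and transport to the Golgi, 2 were higher (median 0.53), Sec24d (2.13) and Surf4 (2.01), and neither had an interval bound above 4-fold. With either lane alone 1 of the 19 was higher, and without immunoglobulin UMIs in the totals 3 were. Counts this small do not set the list apart from the 5.73% of all genes.

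**Figure D5:**
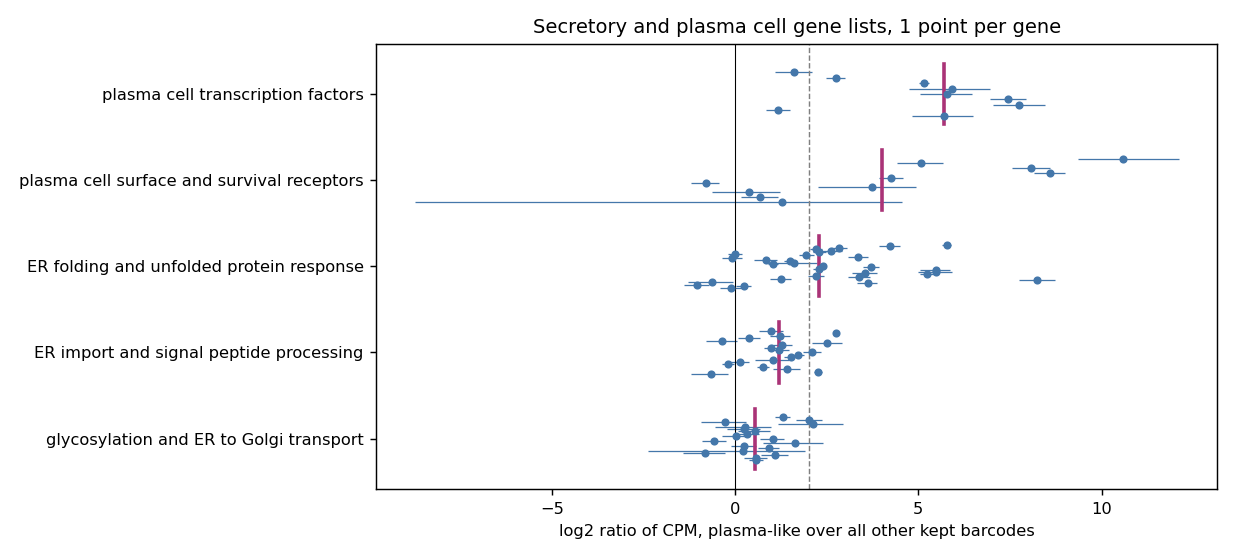
Log2 ratio of CPM in plasma-like cells over the other kept barcodes (x axis) for each measured gene (points) of the gene lists (y axis), with 95% exact counting intervals as lines, the median of each list as a thick bar and a dashed line at 4-fold. The transcription factor list has its median at 5.69, the folding list at 2.29 and the glycosylation list at 0.53.

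Markers of other cells were read in the same 33 cells. All 12 plasma cell markers, a list that holds genes of the rule, were higher, as were 7 of 9 B cell markers, with Ms4a1 (CD20, 10.67) in 18 cells, Ly6d (8.35), Cd79b (7.45) and Cd79a (6.15), while Pax5 (4.15), which Prdm1 represses, had its 7 UMIs in 1 cell. Ebf1 (−0.71) was not higher. Of 6 plasmacytoid dendritic markers compared, 2 were higher, Bst2 (2.30, in 26 cells) and Cox6a2 (4.46, in 3 cells), and 2 were lower. With immunoglobulin UMIs left out of the totals, 4 of the 6 were higher and 2 lower. All 12 LEPR+ stromal markers were lower, also with immunoglobulin UMIs left out of the totals. Of 14 erythroid markers, 13 were lower, but 4 without immunoglobulin UMIs in the totals. Of 12 fibroblast markers, 1 was higher, Ly6a (7.10), with UMIs in 33 of 33 cells, and 6 were past 4-fold lower. As 4 of those 6 had 0 UMIs, and the median of the list was −0.04 with such genes at the limit of 3 counts, a lower level of the fibroblast list was not resolved. Dcn (0.81) had its 212 UMIs in 1 cell and Gsn (1.53) had UMIs in 5. By cluster, 1 of the 3 Igha cells (5.04% immunoglobulin) lay with the fibroblast-like cells, 1 Ighm cell with the megakaryocyte-like ones, and 1 Ighg2c cell with 4.46% globin UMIs with the erythroid-like ones, and the part of RNA from other cells in these was not tested. Ptprc (CD45), the antigen against which the cells had been sorted, had 11 UMIs in 3 of the 33 cells. The T cell genes Cd3e, Cd3d, Cd3g, Trac, Cd8a and Cd4 were at 0 UMIs. Each had only 9 to 25 UMIs in all the other kept barcodes, too few to be compared, so nothing is read from these zeros. Of 10 cell cycle genes, 9 were lower and none was higher, Mki67 being at −3.17 with UMIs in 17 cells, but only 3 were lower when immunoglobulin UMIs were left out of the totals, and most of the other barcodes are erythroid-like.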

How the data were processed

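Single-cell RNA-seq was analysed from 1 sample, 3 pooled mice, deposited as 2 samples labelled rep1 and rep2, called lanes here. The authors prepared 10x Chromium 3′ libraries and deposited, lane by lane, unnormalized UMI counts of genes in those barcodes that had been called as cells. Counting was by Cell Ranger, for which the file header gives 3.0.2 and the methods another version. The submitters' processing notes name the build mm10. Gene coordinates, transcripts and exon sequences came from GENCODE M21 of GRCm38. The gene members and lists were chosen with earlier results of these data known.

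Counts of the lanes were summed per barcode, since 10928 of 11056 barcodes were in both. Barcodes with under 200 genes or over 20% mitochondrial UMIs (1482 with enough genes) were left out of the comparisons. Lane totals were 116827845 and 120556381 UMIs. Clusters were made with Seurat 5.3.0 and sctransform 0.4.2 in R 4.3.3 and named from whichever marker list had most of its genes detected in them, as a share of the list. A name was dropped where more of the 10 leading genes belonged to another list, or where depth was low and no marker was among them. Of the 9 erythroid-like clusters, 8 kept the name with no marker among the leading genes. Sums, exact intervals and shares were computed in Python 3.11.15 with scipy 1.17.1. Poisson intervals for levels and conditional binomial ones for ratios used the mean of the lanes, and Clopper-Pearson intervals were used for shares of cells. Genes with at least 50 UMIs over all kept barcodes were compared, and 4-fold was the limit. A count of 0 allows up to 3 counts. Scrublet in scanpy 1.11.5 called 186 doublets (1.94%), none of them plasma-like, and no barcode was removed by it except as an alternative. The calculations were tested on simulated data with known answers. The fold changes are ratios of CPM and no p-value was computed, since there is 1 biological sample.

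Named genes are the 10 members, the other constant genes, members of the lists, and up to 10 genes with the largest ratio. Those 10 were taken from genes with UMIs in at least 25% of plasma-like cells and at least 100 UMIs. Immunoglobulin constant genes and variable segments were left out of that ranking. Alternatives were other limits on genes, mitochondrial and immunoglobulin UMIs, each lane alone, other scalings, no filter on low counts, removal of doublets, and groups of barcodes added or left out after seeing the data. No protein sequences were used here, and 1 listed gene is not reported here.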

Additional observations from a re-analysis of the deposited data

Results flagged for a closer look

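Among the 1482 barcodes left out for over 20% mitochondrial UMIs, 10 had at least 2% immunoglobulin UMIs, which was above the 3 that a count of 0 allows. These barcodes were in no comparison of the report. Both of the 2 that met the plasma-like rule otherwise were led by Ighg2b, with 3523 to 4931 UMIs, of which 20.4 to 38.2% were mitochondrial. Of the other 8, Ighg2b led in 4, Ighg2c in 2, Ighm in 1 and Igha in 1. Igkc was at 1043 CPM over all barcodes left out in this way, and at 531 CPM without the 10, at a median depth of 2441 UMIs.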

How the results depend on the processing

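No paired analysis was possible because the series has 1 group only. Over 60 values and 19 alternatives, 761 values were recomputed, of which 651 were close to the value reported, 110 moved and 0 reversed direction. Counts of cells or genes were held to a fold limit, and other values to their interval. Only log2 ratios past 4-fold could be called reversed. Most of those were fixed by the rule or ranked by the same values, so the 0 was close to set in advance. The 252 recomputed ratios of the 10 members and of the genes with the largest ratios stayed past 4-fold, the lowest being 2.34 on the log2 scale for Sdc1 by the mean over cells of CPM. With the mean over cells, 513 genes were higher. Without immunoglobulin UMIs in the totals, 1285 genes were higher, 7 of the import list were higher and 3 of the cell cycle list lower, Xbp1 was at 1580 CPM and 3.26 over LEPR+ stromal-like cells, and Sdc1 at 249.9 CPM and 0.69. Without a filter beyond 1 UMI in each group, 1389 genes were higher and 1657 lower. Leaving out either lane gave 1 to 1 higher genes of the glycosylation list and 0 to 1 lower genes of the surface list. The immunoglobulin share of the other droplets, 0.0134% as reported, was 0.0128% at no more than 10% mitochondrial UMIs, 0.0131% at 500 or more genes, and 0.0340% in lane 1 with barcodes thinned to 1000 UMIs. Added after the data were seen were these: without the B-lineage droplets that share was 0.0131%, with 26.7% Ighm and 52.5% Ighg2b; with the immunoglobulin-rich barcodes counted as plasma-like, 14 cells were Ighm and 16 Ighg2b; and without the 3 plasma-like cells of high globin, Xbp1 was at 1087 CPM. The number of plasma-like cells, 33, limits every class share, and the lanes, which hold the same cells, say nothing of the spread between mice.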

Other observations

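Genes were ranked by the ratio of plasma-like cells over the other kept barcodes, with immunoglobulin genes left out. Iglc1, left out in this way, had a log2 ratio of 9.31 with UMIs in 11 cells. Beyond the members, the genes ranked highest held some that are not part of the secretory program. Slpi, which codes for a secreted inhibitor of leukocyte proteases, had UMIs in 33 of 33 cells and stood at 34133 CPM against 59.1 in the other barcodes (log2 ratio 9.17). The others were Ms4a1 (10.67), Tnfrsf17 (10.60), Prg2 (9.63, in 12 cells), Ermn (9.32, in 19 cells), Klra17 (8.81, in 15 cells) and Oosp1 (8.74, in 27 cells), besides Jchain, Mzb1 and Slamf7. Ly6c2, which codes for a form of the Ly-6C antigen, was at 2358 CPM with a log2 ratio of 7.56. These genes were ranked by the same values that are given here, so their ratios are a description of the 33 cells.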
